A study of Mus musculus with 29 samples.

Results

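The 32 genes described here are the transcription factor NRF2 (gene Nfe2l2), the proteins that set its activity, and genes of the antioxidant, detoxifying and NADPH-producing pathways that it is known to drive. They were taken by symbol from the 22187 genes of the deposited table, and all 32 were found. By role they were 4 genes for NRF2 and its regulators, 7 for glutathione, 5 for the thioredoxin system and peroxiredoxins, 7 for quinone, carbonyl and epoxide handling and export, 2 for heme breakdown, 5 for NADPH and the pentose phosphate pathway, and 2 superoxide dismutases. The superoxide dismutases are general defence enzymes and are not classical NRF2 targets.

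RNA was sequenced from tumours and non-tumour liver of C57BL/6 mice, all of which had received the liver carcinogen diethylnitrosamine (DEN) at 25 mg/kg into the peritoneum at 2 weeks of age, followed by 18 weeks of feeding. The sample labels give 2 diets, HFD and HFD_alcohol (called alcohol here), while the text for the whole series describes a liquid ethanol diet with pair-fed controls; the sample labels were used. The genotype labels are IL17RA-/-, for mice lacking the IL-17 receptor A chain, and WT; no cell type is named for the deletion, and the labels do not state age at collection, sex or pooling of animals. Tumours comprised 3 HFD libraries labelled IL17RA-/- and 3 HFD WT libraries, and 4 alcohol libraries labelled IL17RA-/- and 3 alcohol WT libraries. Non-tumour liver comprised 3 HFD libraries labelled IL17RA-/- and 3 HFD WT libraries, and 5 alcohol libraries labelled IL17RA-/- and 5 alcohol WT libraries. No label ties a library to an animal. The p-values therefore measure spread among these libraries only, and tumour and non-tumour tissue may come from the same mice.

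NRF2 is kept scarce by KEAP1, an adaptor that hands it to a ubiquitin ligase for destruction. When oxidants or electrophiles modify KEAP1, or when the autophagy receptor SQSTM1 sequesters it, NRF2 accumulates, pairs with a small MAF protein such as MAFG and binds antioxidant response elements near its target genes. In liver these targets supply glutathione, thioredoxin and the NADPH that keeps both reduced, and they detoxify reactive products of drugs, carcinogens and alcohol. Because NRF2 is controlled mainly through protein stability, its own mRNA need not follow its activity.

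Libraries held 3213696 to 9169116 counts in tumours and 4653422 to 9660584 in non-tumour liver, as recovered from the deposited CPM, which scale every library to the same total count. A floor of 3 counts then stood for 0.311 to 0.934 CPM, which covers counting error only. All 10 hepatocyte markers examined were present, summing to 97553 to 198706 CPM in tumours and 81126 to 115654 CPM in non-tumour liver. Their mean log2(CPM + 1) ran the other way, at 10.98 to 11.90 in tumours and 11.83 to 12.63 in non-tumour liver. The 9 tumour markers found summed to 495 to 1304 CPM in tumours and 16.2 to 515 CPM in non-tumour liver. Il17ra itself was called neither lower nor higher under the IL17RA-/- label, with a lowest adjusted p of 0.0562 over the 4 label comparisons (limma). It averaged 59.4 ± 4.45 CPM in HFD tumours labelled IL17RA-/- and 32.8 ± 13.8 in HFD WT tumours (SD, n = 3 each). In alcohol non-tumour liver it averaged 26.1 ± 8.39 and 27.5 ± 10.2 CPM (SD, n = 5 each). Every tumour labelled IL17RA-/- was above every WT tumour of its diet, at 54.4 to 62.9 against 22.9 to 48.5 CPM on HFD. On alcohol the tumours had 42.4 to 55.8 against 32.3 to 33.8 CPM. Of all genes, 8.15% and 3.29% separated in this direction. The non-tumour groups overlapped on both diets. A value per gene does not show loss of part of a transcript, so the genotype is given throughout as labelled. On the first principal component of all genes, which held 53.8% of the variance, 12 tumours lay between -69.1 and -38.1 and HFD WT tumour replicate 4 at -12.0, nearer to non-tumour liver, whose lowest values were 13.3 for HFD WT replicate 1 and 25.0 for HFD replicate 3 labelled IL17RA-/-. Alcohol non-tumour replicates 2 and 4 labelled IL17RA-/- stood apart on the second component, at 48.3 and 36.9.

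**Figure D1:**
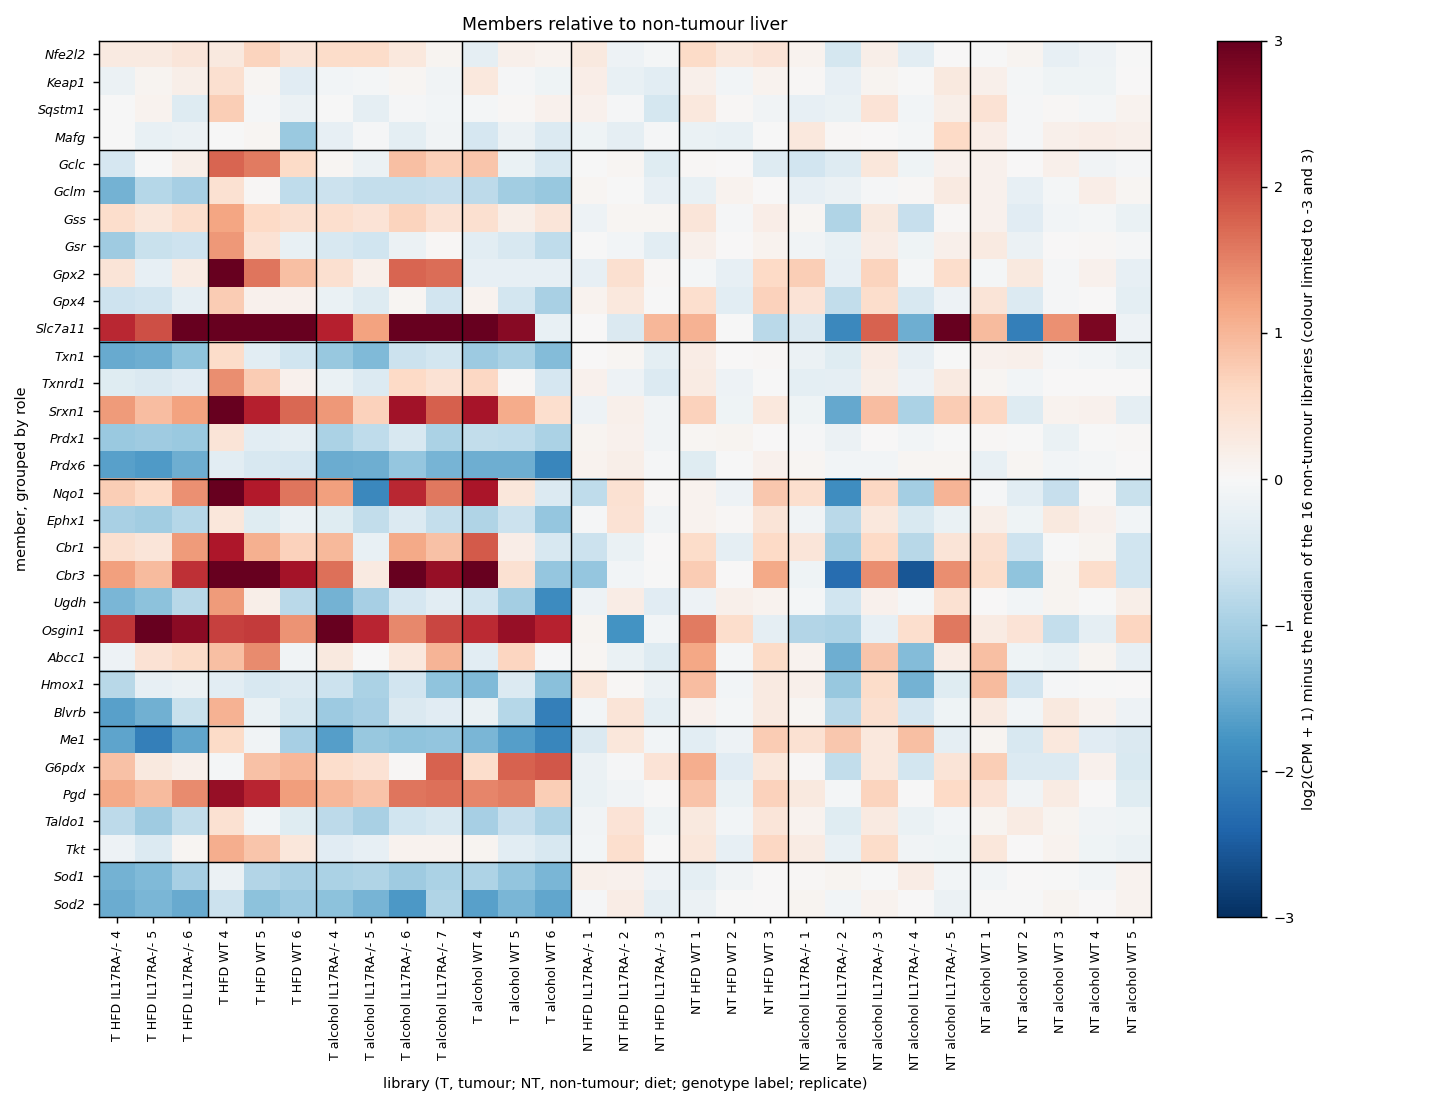
Levels of the 32 genes (rows, grouped by role) in the 29 libraries (columns), as log2(CPM + 1) minus the median of the 16 non-tumour libraries, with the colour limited to -3 and 3. HFD WT tumour replicate 4 was the highest of the 13 tumours in 25 of 32 genes, and the rows for Slc7a11, Srxn1, Cbr3 and Osgin1 are mostly red in tumours while those for Prdx6, Sod1 and Sod2 are blue.

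The genes varied very unequally. Over all 29 libraries the highest value was 1.79 times the lowest for Keap1, 2.29 times for Nfe2l2 and 2.37 times for Sqstm1, the 3 with the narrowest ranges. At the other end, Nqo1 spanned 42.8-fold (3.55 to 152 CPM), while Cbr3 (0.281 to 195 CPM) and Slc7a11 (0.306 to 676 CPM) reached down to the floor. Gpx2, a glutathione peroxidase best known from the gut, was at 0 in 8 libraries and under 3 counts in 17. It reached 1 CPM in tumours only, with a highest non-tumour value of 0.962 CPM, so it passed the filter on low values through the tumours. Within tumours it did so only in HFD WT and in alcohol libraries labelled IL17RA-/-. Its calls and separations between groups given below, of tissue, label or diet, are therefore counted but not read as a difference. Thus the genes for NRF2 and its brake varied least, and the widest ranges belonged to target genes.

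Per kilobase of exon, in CPM, the most abundant of the 32 in HFD WT tumours were Prdx1 at 315, Gclc at 292, Gpx4 at 264 and Ephx1 at 246. In alcohol WT non-tumour liver they were Prdx1 at 316, Ephx1 at 271, Gpx4 at 198 and Txn1 at 182, with Gclc at 115. Abcc1, an exporter of glutathione conjugates, stayed at 0.484 to 1.07 over the 8 group means on this scale. The length was that of all annotated exons of a gene joined, expressed or not, such as 3970 bases for Sod1 and 10008 for Sod2. The order of abundance therefore depends on the annotation. Levels within groups are given below in CPM without a length correction.

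In HFD tumours, 5 of the 32 genes were lower under the IL17RA-/- label than in WT and 0 were higher, by limma on log2(CPM + 1) with Benjamini-Hochberg adjustment over all genes, which calls an adjusted p under 0.05. The background of this comparison was 1.61% of 13269 genes called, 0.603% higher and 1% lower, which is 80 and 133 genes. That split depended on scaling, since median-ratio rescaling called 416 higher and 210 lower, with 9 members lower and 0 higher. The 5 were Prdx6, Prdx1, Me1, Txn1 and Ephx1. The 32 genes were chosen with lower levels of the group in these tumours already known, so setting them against the background is a description. In bulk tissue, fewer cells of a type and less RNA per cell cannot be told apart.

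Prdx6, a peroxiredoxin that uses glutathione to reduce phospholipid hydroperoxides, had 171, 163 and 189 CPM in HFD tumours labelled IL17RA-/- (called labelled tumours in what follows), against 422, 380.5 and 371 CPM in HFD WT tumours (replicates 4, 5 and 6 in each). All 3 WT tumours lay well above all 3 labelled tumours, and the log2 fold change was -1.16 (SE 0.158, adjusted p = 0.0147, limma). Prdx1, the thioredoxin-dependent cytosolic peroxidase, had 452, 465 and 456 CPM in labelled tumours, against 1288, 782 and 809.9 CPM in WT tumours. The labelled tumours were nearly equal, WT replicate 4 stood above the other two, and the log2 fold change was -1.03 (SE 0.193, adjusted p = 0.0336, limma).

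Me1, the cytosolic malic enzyme that makes NADPH, had 47.3, 33.9 and 48.6 CPM in labelled HFD tumours, against 216, 133 and 72.3 CPM in WT tumours. The groups did not overlap, and the WT values spread about as widely as the distance between the groups, with a log2 fold change of -1.56 (SE 0.313, adjusted p = 0.0373, limma). Txn1, thioredoxin itself, had 66.7, 68.8 and 81.5 CPM in labelled tumours, against 280.5, 153 and 126 CPM in WT tumours. Again WT replicate 4 was highest and no values overlapped (log2 fold change -1.27, SE 0.2703, adjusted p = 0.0405, limma). Ephx1, the microsomal epoxide hydrolase, had 253, 239 and 276 CPM in labelled tumours, against 623, 385 and 429.6 CPM in WT tumours. It had the smallest difference of the 5, at -0.87 on the log2 scale (SE 0.194, adjusted p = 0.0436, limma).

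These 5 calls rested on few libraries. Leaving out labelled HFD tumour replicate 4, 5 or 6, or WT HFD tumour replicate 4, left 0 members called, and leaving out WT replicate 5 or 6 gave 8 each. Without WT replicate 4 the log2 fold changes were -1.11 for Prdx6, -0.80 for Prdx1, -1.18 for Me1, -0.94 for Txn1 and -0.67 for Ephx1. Adjusted p-values over the 14 alternatives ran from 6.86e-05 to 0.118 for Prdx6, from 0.000454 to 0.157 for Prdx1, from 0.00507 to 0.157 for Me1, from 0.00109 to 0.157 for Txn1 and from 0.0128 to 0.171 for Ephx1. The fold changes stayed negative for all 5 in each of these alternatives.

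**Figure D2:**
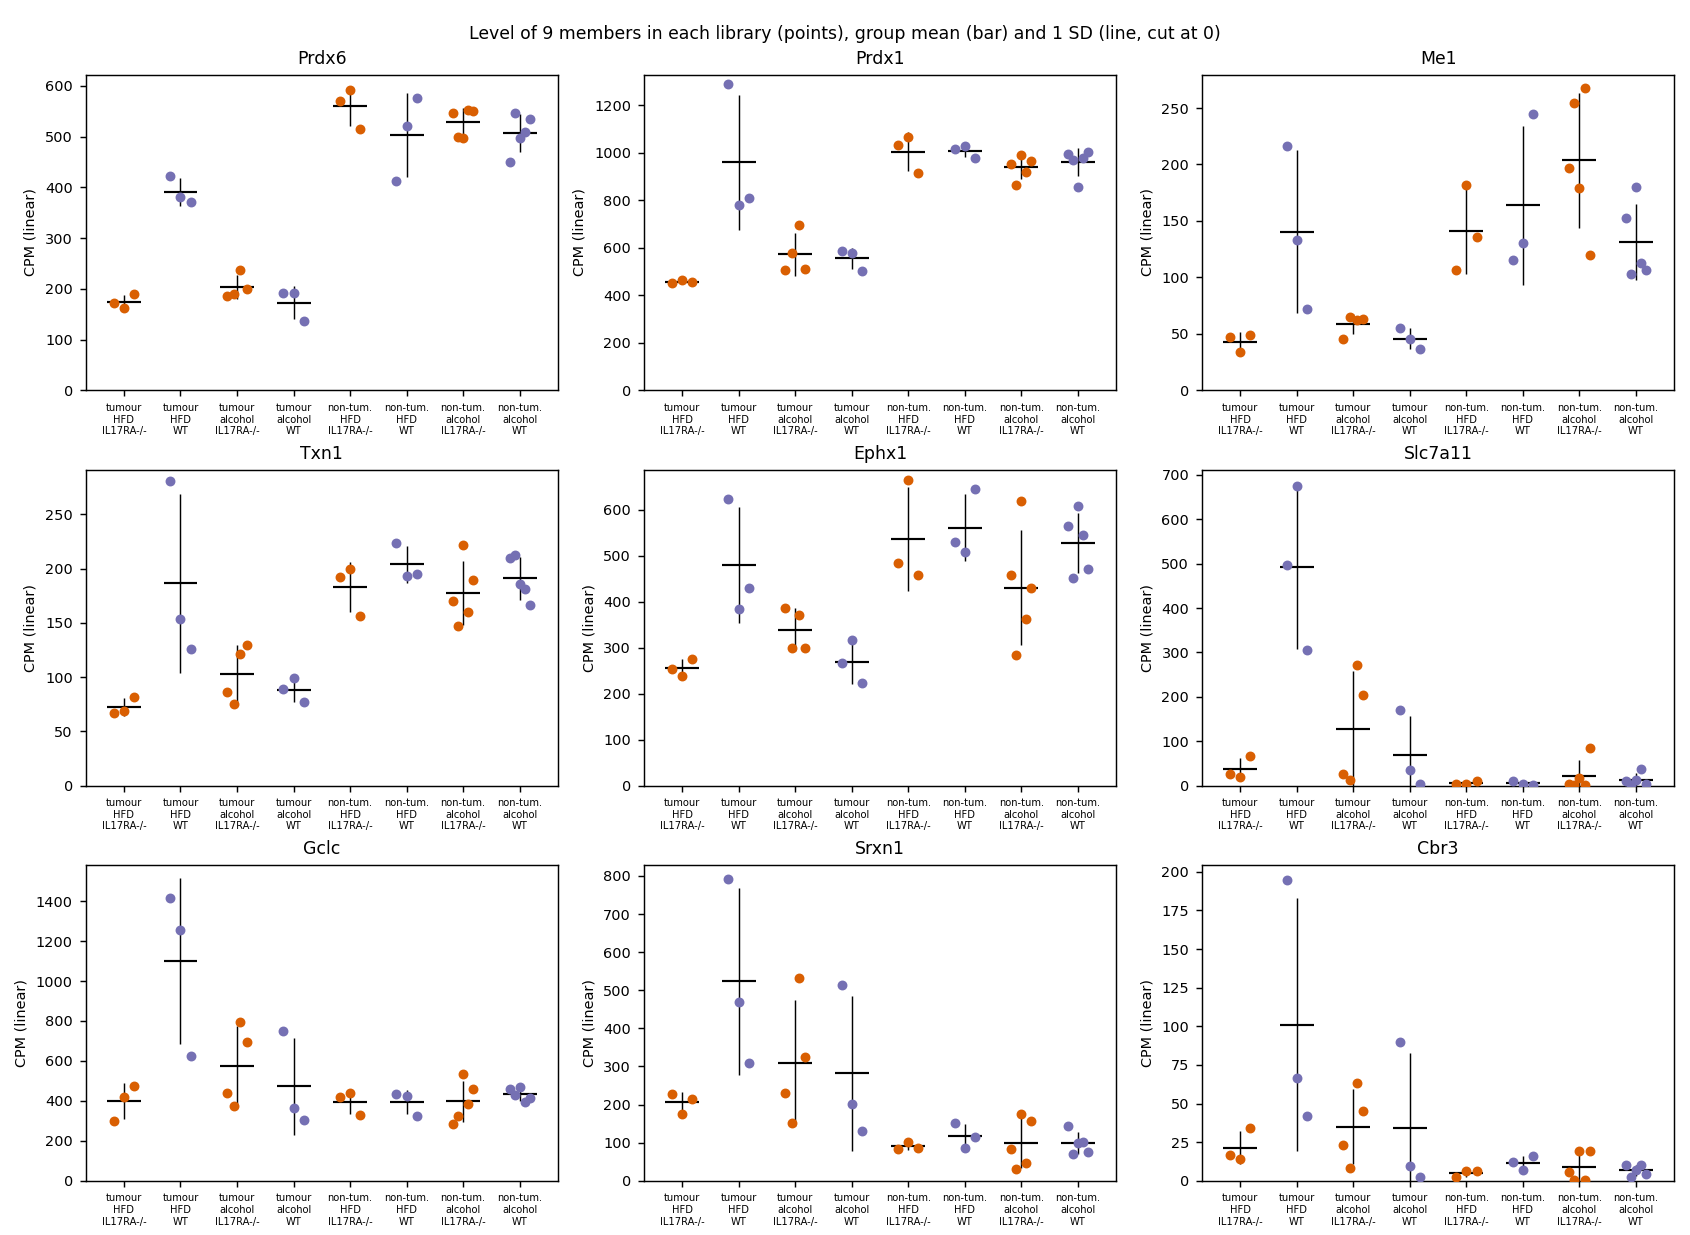
CPM (linear axes from 0) of 9 of the genes in each of the 29 libraries (points) for the 8 groups, with the group mean (bar) and 1 SD (line). The 3 HFD WT tumours lie above the 3 HFD tumours labelled IL17RA-/- in all 9 panels, Prdx6 in HFD WT tumours lies above all other tumours at 371 to 422 CPM, and Slc7a11 reaches 676 CPM in an HFD WT tumour.

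The promoters of the members were searched for the core of the antioxidant response element, TGACNNNGC with N any base, on both strands. RefSeq windows of 300 bases (250 before to 50 after the start, build GRCm38.p6) were given for 27 of the 32 genes, 35 windows in all. A match lay in 11 of these 35 windows (31.4%), those of G6pdx, Gclm, Mafg, Me1, Nfe2l2, Pgd, Prdx1, Sod1, Srxn1, Txnrd1 and Ugdh, and in 12.4% of all 32851 windows of that length. Many of the members were listed as known NRF2 targets, so the share is a description. Of the 5 genes lower under the label in HFD tumours, 4 had a window and 2 of these held a match, Prdx1 and Me1, which are printed for that reason. Srxn1 and Gclm were added after their values were seen, as a gene that rose and a gene that fell in tumours. Capitals mark the match in each 5′ to 3′ sequence, read on the gene's strand.
Prdx1, chr4:116685349-116685648, plus strand, build GRCm38.p6: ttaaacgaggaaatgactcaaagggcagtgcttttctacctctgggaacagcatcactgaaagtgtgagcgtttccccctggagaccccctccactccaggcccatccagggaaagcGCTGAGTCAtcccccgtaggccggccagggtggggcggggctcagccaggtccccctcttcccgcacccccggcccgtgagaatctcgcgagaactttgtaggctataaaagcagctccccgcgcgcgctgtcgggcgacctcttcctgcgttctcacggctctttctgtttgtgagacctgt
Me1, chr9:86695865-86696164, minus strand, build GRCm38.p6: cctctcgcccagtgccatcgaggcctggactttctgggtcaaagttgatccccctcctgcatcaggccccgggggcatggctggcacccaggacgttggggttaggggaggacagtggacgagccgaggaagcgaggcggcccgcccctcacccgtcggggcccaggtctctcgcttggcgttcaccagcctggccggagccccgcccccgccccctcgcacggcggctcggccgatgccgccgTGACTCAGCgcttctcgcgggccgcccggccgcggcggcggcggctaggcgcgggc
Srxn1, chr2:152105274-152105573, plus strand, build GRCm38.p6: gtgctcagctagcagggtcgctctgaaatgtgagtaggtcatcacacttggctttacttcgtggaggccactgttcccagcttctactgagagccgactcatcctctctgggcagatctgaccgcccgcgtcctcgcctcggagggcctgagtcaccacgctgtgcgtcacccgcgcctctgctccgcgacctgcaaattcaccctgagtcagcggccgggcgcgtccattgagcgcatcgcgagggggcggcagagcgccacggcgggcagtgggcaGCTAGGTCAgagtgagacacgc
Gclm, chr3:122245307-122245606, plus strand, build GRCm38.p6: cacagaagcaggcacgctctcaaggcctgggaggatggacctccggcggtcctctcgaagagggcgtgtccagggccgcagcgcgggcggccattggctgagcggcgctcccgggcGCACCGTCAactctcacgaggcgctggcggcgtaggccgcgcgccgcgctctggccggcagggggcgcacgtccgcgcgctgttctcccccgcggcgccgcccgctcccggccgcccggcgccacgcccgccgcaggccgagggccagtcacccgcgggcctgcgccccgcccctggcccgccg

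The first base of the match lay at -133 from the start in Prdx1, -6 in Me1, 29 in Srxn1 and -134 in Gclm, and it read on the opposite strand in all but Me1. In Prdx1 and Me1 the match overlapped the AP-1 motif TGANTCA, so the letters do not tell these motifs apart. A match is a run of letters and not a shown binding site. Prdx1 and Me1 were lower in HFD tumours labelled IL17RA-/- than in WT, and lower in tumours than in non-tumour liver. Srxn1, with a match too, was also lower in each labelled HFD tumour than in each WT one, though not called. Between tissues, Srxn1 was higher in tumours, as given further on.

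Over all 32 genes, 30 fold changes were negative, with a median of -0.90, against -0.09 over all genes tested, of which 42.1% were positive. Osgin1 and Mafg were the 2 positive members, and Keap1 and Hmox1, negative but near 0, turned positive under median-ratio rescaling. In 21 members every labelled tumour was below every WT tumour, where 16.5% of all genes did so, and in 1, Osgin1, every labelled tumour was above, where 8.15% of all genes did so. The 21 include Gpx2, which passed the filter through the groups where it was high. The members were chosen with this direction known, so these shares too are a description. Members with an adjusted p just above the threshold were Taldo1 and Tkt at 0.0517 each, Gsr at 0.052 and Gclm at 0.055.

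Among the 7 glutathione genes, 0 were called and all 7 fold changes were negative, with a median of -1.30. Slc7a11, the cystine importer that feeds glutathione synthesis, had 25.1, 19.7 and 65.8 CPM in labelled HFD tumours, against 498, 676 and 306 CPM in WT tumours. The groups were far apart, yet Slc7a11 also varied widely in the other tumours, and its log2 fold change of -3.83 had an SE of 1.23 (adjusted p = 0.102, limma); with the spread taken from these 6 libraries alone it was the single member called. Gclc, the catalytic subunit of glutamate-cysteine ligase, had 298, 418 and 477 CPM in labelled tumours, against 1417, 1255 and 627 CPM in WT tumours (adjusted p = 0.0704, limma). Its modifier subunit Gclm averaged 119 ± 23.1 and 252 ± 99.1 CPM, and glutathione reductase, Gsr, 67.7 ± 11.2 and 183 ± 97.3 CPM, in labelled and WT HFD tumours (SD, n = 3 each). Gss, which adds glycine in the last step of synthesis, was closer, at 120.4 ± 8.73 and 150.4 ± 41.95 CPM. Gpx4, which protects membrane lipids from peroxidation, had 229, 236 and 289 CPM in labelled tumours and 599, 383 and 385 CPM in WT tumours, again with WT replicate 4 highest. Gpx2 had 0.554, 0 and 0.409 CPM in labelled tumours and 46.3, 2.57 and 1.2 CPM in WT tumours, so its difference was carried by WT replicate 4.

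Of the thioredoxin group, the 2 not called were Txnrd1, thioredoxin reductase, at 135 ± 4.83 and 318 ± 138 CPM in labelled and WT HFD tumours, and Srxn1, which repairs overoxidised peroxiredoxins, at 206 ± 26.9 and 523 ± 246 CPM (SD, n = 3 each). Their adjusted p-values were 0.0912 and 0.166 (limma). In both, the SD among WT tumours was a large part of the difference.

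Among the detoxifying enzymes other than Ephx1, 0 of 6 were called. The carbonyl reductase Cbr3 had 16.9, 13.8 and 33.9 CPM in labelled HFD tumours, against 195, 66.5 and 42.2 CPM in WT tumours, and its neighbour Cbr1 103, 95.04 and 182 CPM against 403, 155 and 120.4 CPM. For both, WT replicate 4 was the highest library, and for Cbr1 the groups overlapped. Nqo1, the quinone reductase often used as a readout of NRF2, had 27.99, 25.1 and 43.5 CPM in labelled tumours, against 152, 88.7 and 51.4 CPM in WT tumours (log2 fold change -1.47, SE 0.908, adjusted p = 0.354, limma). Ugdh, which makes UDP-glucuronate for conjugation, averaged 122 ± 24.3 and 367 ± 256 CPM, and the exporter Abcc1 10.7 ± 2.84 and 16.1 ± 8.28 CPM, in labelled and WT tumours (SD, n = 3 each). Osgin1, an oxidative stress-induced growth inhibitor, stood opposite to the rest, with 144, 305 and 212 CPM in labelled tumours and 134, 138 and 81.8 CPM in WT tumours (log2 fold change 0.86, SE 0.351, adjusted p = 0.171, limma).

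Of the NADPH genes other than Me1, Pgd, the second NADPH-forming step of the pentose phosphate pathway, averaged 68.97 ± 12.1 and 136 ± 59.2 CPM in labelled and WT HFD tumours. In the branch that rearranges sugar phosphates, Taldo1 averaged 60.6 ± 7.12 and 114 ± 34.7 CPM and Tkt 141 ± 21.9 and 273 ± 69.5 CPM (SD, n = 3 each). G6pdx, the first and rate-setting enzyme, averaged 16.03 ± 4.81 and 18.6 ± 6.88 CPM, a difference well within its spread. For heme breakdown, Hmox1 averaged 27.8 ± 6.62 and 27.6 ± 1.68 CPM, while Blvrb, a biliverdin reductase, had 44.5, 50.96 and 88.3 CPM in labelled tumours and 289.6, 122 and 96.1 CPM in WT tumours. Hmox1, commonly listed as an NRF2 target, thus had near-equal means and the groups did not overlap for Blvrb, and neither was called. The cytosolic and mitochondrial superoxide dismutases averaged 199.6 ± 32.8 and 303 ± 95.5 CPM for Sod1 and 76.4 ± 3.98 and 108 ± 24.6 CPM for Sod2.

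The genes that set NRF2 activity were close in both groups of HFD tumours. Nfe2l2 had 107, 108 and 114 CPM in labelled tumours, against 110.0, 141 and 116 CPM in WT tumours (log2 fold change -0.15, SE 0.166, adjusted p = 0.621, limma). Keap1 had 49.1, 58.8 and 62.9 CPM in labelled tumours, against 77.9, 57.3 and 43.5 CPM in WT tumours (log2 fold change -0.03, SE 0.197, adjusted p = 0.939, limma). The values overlapped for both genes. Sqstm1 averaged 414 ± 69.1 and 515 ± 186 CPM and Mafg 56.1 ± 4.53 and 51.4 ± 20.4 CPM in labelled and WT HFD tumours (SD, n = 3 each).

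Markers of other cells were summed in the same HFD tumours. The 7 cholangiocyte markers summed to 218 to 273 CPM in labelled HFD tumours and 354 to 1679 CPM in HFD WT tumours, and 0 of the 7 were called. Nearly all of the WT level was Spp1, also made by macrophages, at 193, 245 and 216 CPM in labelled tumours and 1588, 1629 and 337 CPM in WT tumours, while the defining duct keratin Krt19 had 6.65, 6.696 and 1.02 CPM and 0.696, 2.57 and 0.872 CPM. The 12 Kupffer cell and macrophage markers summed to 510.4 to 601 CPM in labelled tumours and 703 to 890 CPM in WT tumours, with 0 called. T and NK cell markers (8 of 9 found, 6 tested, 0 called) summed to 3.33 to 13.5 CPM and 9.51 to 44.7 CPM, neutrophil markers (6, of which 4 tested, 0 called) to 6.65 to 10.04 CPM and 6.85 to 24.5 CPM, and B cell markers (6, 0 called) to 56.8 to 93.9 CPM and 7.77 to 341 CPM. The 10 hepatocyte markers summed to 147018 to 182908 CPM in labelled tumours and 97553 to 152836 CPM in WT tumours, with 1, Pck1, called higher in labelled tumours. The 7 endothelial markers summed to 445 to 502 CPM and 249.7 to 438 CPM, and the 8 stellate and fibroblast markers to 813 to 1313 CPM and 481 to 1657 CPM, with 0 called in either list. The part of these cells in the differences was not tested.

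**Figure D3:**
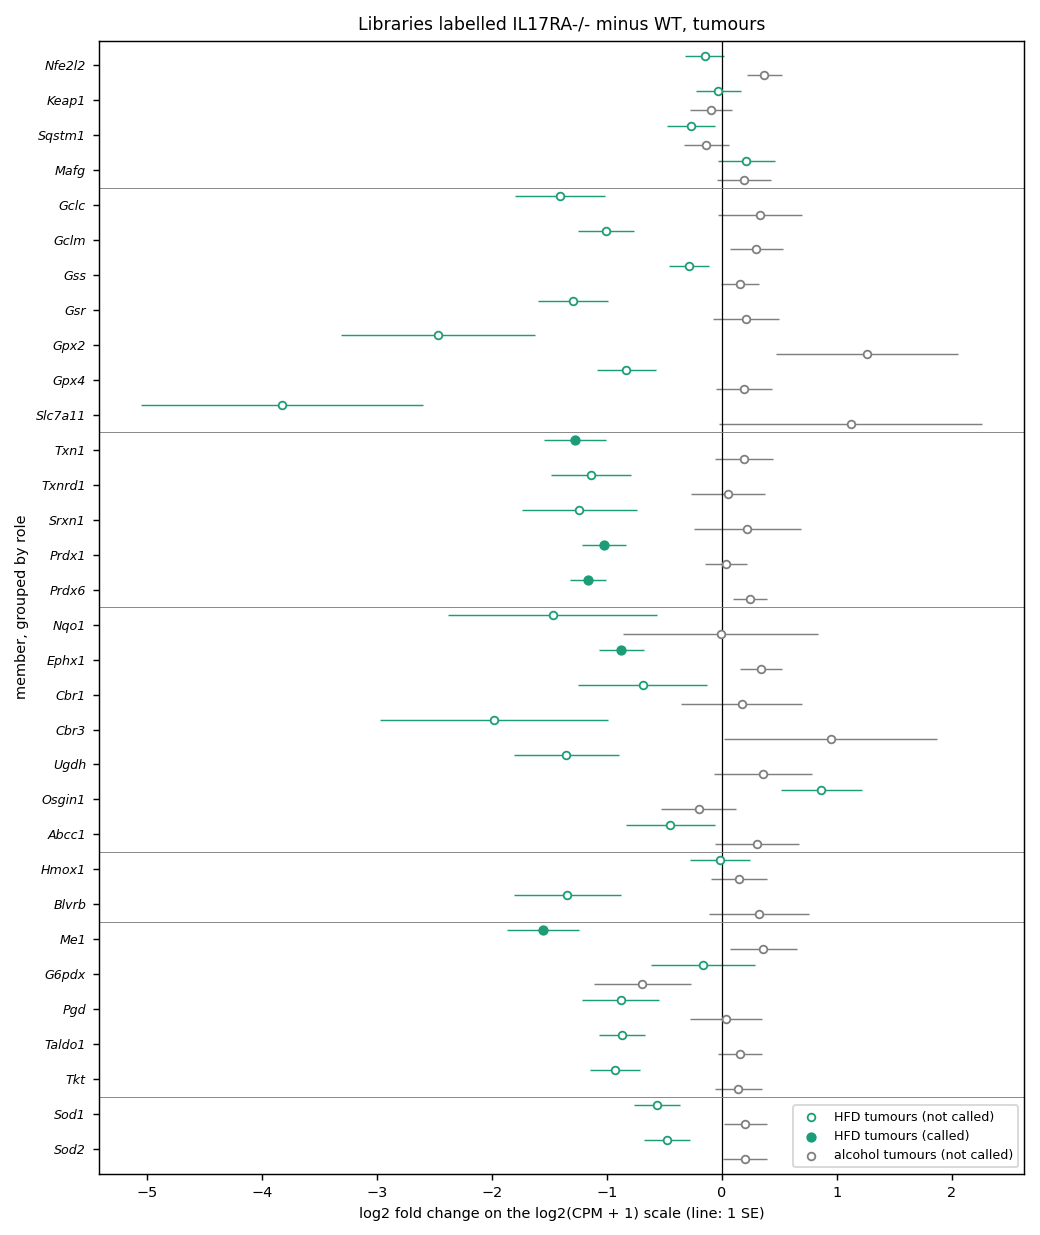
Log2 fold change (tumours labelled IL17RA-/- minus WT tumours, on the log2(CPM + 1) scale) of the 32 genes, for HFD tumours (green) and alcohol tumours (grey), with lines of 1 SE and filled points for an adjusted p under 0.05. In HFD tumours 30 of 32 points lie below 0 and 5 are filled, and in alcohol tumours 27 of 32 lie above 0 and 0 are filled. Over all genes tested, 42.1% of fold changes were positive in HFD tumours and 67.6% in alcohol tumours.

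In alcohol tumours 0 of the 32 genes were called between the labels, and 0% of 13269 genes were called by limma, with 261 at an unadjusted p under 0.05, 1 of them a member, and 0 called by limma-voom. The members' fold changes ran the other way on the whole, 27 positive of 32 with a median of 0.20. Over all genes the median was 0.09 and 67.6% were positive, so most genes shared this direction. Under median-ratio rescaling 3 of the 27 (Txnrd1, Prdx1 and Pgd) turned negative. Gclm and Gpx2 were higher in every labelled alcohol tumour than in every WT one, a separation that 3.29% of all genes showed in that direction, and 0 members showed the opposite one (0.935% of all genes). Gclm had 160.2, 153, 154 and 156 CPM in labelled alcohol tumours (replicates 4 to 7), against 146, 121 and 114 CPM in alcohol WT tumours (replicates 4 to 6). Gpx2 was listed at 0 in all 3 alcohol WT tumours and had 0.658, 0.323, 2.99 and 2.801 CPM in the labelled ones, of which the first 2 replicates are near the floor. Because Gpx2 passed the filter through tumours where it was high, its separation is counted but not read as a difference.

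The genes that varied most within alcohol tumours divided replicates and not labels. Slc7a11 had 26.7, 11.6, 273 and 203 CPM in labelled alcohol tumours, against 169.7, 35.3 and 3.64 CPM in WT ones. Labelled replicates 6 and 7 and WT replicate 4 were high. The same 3 libraries were the highest for Cbr3, with 23.2, 8.23, 63.1 and 45.4 CPM in labelled alcohol tumours and 89.96, 9.43 and 2.42 CPM in WT ones, and for Srxn1, with 230.2, 151, 533 and 324 CPM and 514, 202 and 131 CPM. Nqo1 followed a like course, with 39.5, 3.55, 82.6 and 51.03 CPM in labelled alcohol tumours and 94.02, 21.03 and 12.1 CPM in WT ones. WT replicate 6 was the lowest of all 13 tumours in 12 of the 32 genes. Among the called genes of HFD tumours, Prdx6 had 186, 190.3, 237 and 200.1 CPM in labelled alcohol tumours and 192, 191 and 136 CPM in WT ones, values near those of labelled HFD tumours.

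Whether the label difference depended on diet was tested as an interaction in tumours. It called 0 of 32 members and 0% of 13269 genes by limma, with 1757 genes and 21 members at an unadjusted p under 0.05 and 0 genes called by limma-voom. The lowest adjusted p of a member was 0.222, for Prdx6, whose interaction was -1.41 on the log2 scale (SE 0.216); over the alternatives the number of members called went up to 9, when all 29 libraries shared one estimate of the spread. Median-ratio rescaling moved the median of all genes in this interaction by 0.135, and of the members Sqstm1 alone changed sign. The opposite signs in HFD and alcohol tumours were therefore not shown to differ by this test. Averaged over both diets, the label difference in tumours called 0 members, against 0.0301% of 13269 genes, with 8 members at an unadjusted p under 0.05; with all 29 libraries in one fit 2 members were called. The members' median was -0.41, and the lowest adjusted p was 0.15, for Prdx6 (log2 fold change -0.46, limma).

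Set against HFD, alcohol in WT tumours was the comparison with 1 gene called of 13269 (0.00754%), and that gene was Prdx6. It had 192, 191 and 136 CPM in alcohol WT tumours, against 422, 380.5 and 371 CPM in HFD WT tumours, with no overlap (log2 fold change -1.19, SE 0.158, adjusted p = 0.0467, limma). The call held in 4 of 14 alternatives, with adjusted p-values from 4.59e-05 to 0.546; it was lost, for instance, without HFD WT replicate 4 or 6, without alcohol WT replicate 4 or 6, and in limma-voom. These HFD WT tumours also serve the comparison of labels within HFD, so the 2 results share libraries. In this comparison Prdx1 had 586, 577 and 503 CPM in alcohol and 1288, 782 and 809.9 CPM in HFD WT tumours, and Me1 54.9, 45.5 and 36.5 CPM and 216, 133 and 72.3 CPM. Neither was called, although their groups did not overlap.

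In the same comparison 30 of 32 fold changes were negative with a median of -0.85, against -0.17 over all genes, of which 31.9% were positive. Median-ratio rescaling moved the median of all genes by 0.148, and 27 members were then negative with a median of -0.68. In 15 members, Gpx2 counted among them with the same limit, every alcohol WT tumour lay below every HFD WT tumour (12.1% of all genes did). In 1, Osgin1, every alcohol WT tumour lay above (3.16% of all genes). Nfe2l2 was among the 15, at 74, 99.7 and 96.5 CPM in alcohol and 110.0, 141 and 116 CPM in HFD WT tumours. Between alcohol and HFD tumours labelled IL17RA-/-, 0 members and 0% of 13269 genes were called by limma (293 genes at an unadjusted p under 0.05). Here 25 of 32 fold changes were positive with a median of 0.23, against 49.2% of all genes with a median of -0.004. Gclm, Prdx1, Gsr and Ephx1 were higher in every alcohol than in every HFD tumour under this label, where 3.62% of all genes were, and 0 were lower (2.78%). Averaged over the labels, alcohol against HFD called 0 members and 0% of genes in tumours (754 genes at an unadjusted p under 0.05) and 0 members and 0% in non-tumour liver (735 genes).

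In non-tumour liver 0 members were called in any comparison of label or diet by limma, or by limma-voom. Of the 32, 31 were tested, since Gpx2 did not reach 1 CPM in 3 of the 16 libraries. Between the labels, limma called 0% of 12829 genes on HFD (461 genes at an unadjusted p under 0.05) and 0% on alcohol (330 genes). On HFD, Nfe2l2, Cbr3 and Gsr were lower in every library labelled IL17RA-/- than in every WT library, a separation that 8.6% of all genes showed, and 0 were higher in this way (1.09% of all genes), so these counts are near the background. Nfe2l2 had 110.0, 79.9 and 85.8 CPM in labelled HFD livers, against 133, 111 and 119 CPM in HFD WT livers (log2 fold change -0.400, SE 0.1705, adjusted p = 0.9, limma). Median-ratio rescaling raised the median of all genes in this comparison by 0.129 and turned 8 of the 31 members to the other sign, so directions were not stable there; Nfe2l2 was not among the 8.

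On alcohol, 0 members separated the labels (0.335% of all genes did so upwards and 0.0857% downwards). Nfe2l2 had 96.5, 61.8, 101, 70.99 and 89.6 CPM in labelled alcohol livers, against 88.2, 94.5, 75.3, 79.6 and 88.5 CPM in alcohol WT livers (replicates 1 to 5 in each), and Keap1 had 56.8, 46.3, 58.6, 54.7 and 67.8 CPM against 61.6, 53.3, 50.5, 50.6 and 55.9 CPM. Slc7a11 had 3.05, 0.418, 17.5, 0.984 and 85.1 CPM in labelled livers and 9.49, 0.306, 13.1, 37.7 and 3.93 CPM in WT livers, and Cbr3 5.93, 0.558, 19, 0.281 and 18.98 CPM and 10.2, 2.298, 7.105, 10.03 and 4.07 CPM. Labelled replicate 2 was the lowest of the 16 non-tumour libraries in 13 of the 32 genes, and labelled replicate 5 the highest in 8. Without labelled replicates 2 and 4, 0 members were called as before. The 1 member at an unadjusted p under 0.05 was Me1, with 197, 254, 179, 268 and 119.6 CPM in labelled livers and 153, 103, 179.8, 113 and 106 CPM in WT livers (adjusted p = 1, limma).

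Alcohol against HFD called 0 members and 0% of 12829 genes in non-tumour liver under either label (745 genes at an unadjusted p under 0.05 for IL17RA-/-, 541 for WT). Under the IL17RA-/- label 0 members separated the diets (3.53% of all genes did so upwards and 0.39% downwards). In WT liver Nfe2l2 was the 1 member lower in every alcohol than in every HFD library, where 2.57% of all genes were, and 0 were higher (0.577%), so the count is near the background. It had 88.2, 94.5, 75.3, 79.6 and 88.5 CPM in alcohol WT livers, against 133, 111 and 119 CPM in HFD WT livers (log2 fold change -0.499, SE 0.152, adjusted p = 0.875, limma). Averaged over diets the labels called 0 members and 0% of 12829 genes (308 genes at an unadjusted p under 0.05), and the interaction of label and diet 0 members and 0% (529 genes).

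Tissue was the strongest divide. Averaged over diets and labels, tumour against non-tumour liver called 26 of the 32 genes, 12 higher and 14 lower in tumours, against 63.6% of 13586 genes (36.6% higher, 27% lower). The members did not move as a block: their median fold change was -0.03, against 0.09 over all genes. The 4 with the smallest adjusted p were all lower in tumours: Prdx6, Sod2, Sod1 and Prdx1. The largest rises were in Slc7a11, Osgin1 and Cbr3.

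Prdx6 ranged over 136 to 422 (median 191) CPM in the 13 tumours and 413 to 592 (median 528) CPM in the 16 non-tumour libraries (log2 fold change -1.24, SE 0.0625, adjusted p = 1.30e-13, limma). Sod2, the mitochondrial manganese superoxide dismutase, ranged over 63.6 to 136 (median 80.9) CPM in tumours and 176 to 247 (median 212) CPM in non-tumour liver, with no overlap (log2 fold change -1.304, SE 0.0748, adjusted p = 5.74e-13, limma). Sod1, its cytosolic copper and zinc counterpart, ranged over 174 to 413 (median 240.5) CPM in tumours and 382 to 547 (median 469.8) CPM in non-tumour liver (log2 fold change -0.996, SE 0.07401, adjusted p = 2.71e-11, limma). For Prdx6 and Sod1 the overlap came from 1 tumour, HFD WT replicate 4. Prdx1 fell by 0.69 (SE 0.0691, adjusted p = 4.59e-09, limma) and Pgd rose by 1.26 on the log2 scale (SE 0.146, adjusted p = 4.81e-08, limma).

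By role, and averaged over diets and labels, the glutathione group split, with Slc7a11, Gss and Gclc higher in tumours and Gclm and Gsr lower. Among single diets and labels, Gsr was called only in HFD mice labelled IL17RA-/-. In HFD WT it averaged 183 ± 97.3 CPM in tumours and 124 ± 6.39 CPM in non-tumour liver. Gpx2 was the remaining gene called higher, through the tumours that let it pass the filter, while all 3 alcohol WT tumours were listed at 0. Slc7a11 ranged over 3.64 to 676 (median 65.8) CPM in tumours and 0.306 to 85.1 (median 4.45) CPM in non-tumour liver, a log2 fold change of 3.47. The 2 subunits of glutamate-cysteine ligase went opposite ways on that average, with log2 fold changes of 0.48 for Gclc and -0.68 for Gclm. No single diet and label called both. Gclc was called in HFD WT only, where Gclm averaged 252 ± 99.1 CPM in tumours and 246 ± 28.1 CPM in non-tumour liver. Gclm was called in every comparison but HFD WT. In HFD mice labelled IL17RA-/-, Gclc averaged 398 ± 90.7 CPM in tumours and 396 ± 60.5 CPM in non-tumour liver (SD, n = 3 each). In the thioredoxin group Srxn1, whose promoter is printed above with those of Prdx1 and Gclm, rose by 1.58, while Prdx6, Txn1 (-0.86) and Prdx1 fell. Of the detoxifying genes, Osgin1 (2.25), Cbr3 (2.03), Nqo1 (1.29) and Cbr1 (0.88) rose and Ugdh (-0.71) and Ephx1 (-0.65) fell, while Abcc1 was not called. Nqo1 and Cbr1 were called in no single diet and label, and Cbr3 in alcohol mice labelled IL17RA-/- only. Ugdh was called lower in all but HFD WT, where it averaged 367 ± 256 CPM in tumours and 273 ± 29.8 CPM in non-tumour liver.

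Of the 5 NADPH genes 2 rose and 2 fell. On that average both NADPH-forming steps of the pentose phosphate pathway rose in tumours, G6pdx by 0.72 (log2) and Pgd as above. Taldo1 (-0.66) and Me1 (-1.29) fell and Tkt was not called. Pgls, the lactonase between those steps and a gene of another list, was lower in tumours (-0.24). Pgd ranged over 50.8 to 189 (median 82.1) CPM in tumours and 23.1 to 54.8 (median 29.9) CPM in non-tumour liver, and Me1 over 33.9 to 216 (median 54.9) CPM and 103 to 268 (median 144) CPM. G6pdx overlapped more, at 10.8 to 43.3 (median 16.7) CPM in tumours and 6.34 to 25.2 (median 11.2) CPM in non-tumour liver. Among single diets and labels, G6pdx was called in alcohol WT only. Both heme breakdown genes fell on that average, Hmox1 by 0.68 and Blvrb by 0.72. Singly, Hmox1 was called in alcohol WT alone, and Blvrb there and in HFD mice labelled IL17RA-/-. In HFD WT, Blvrb averaged 169 ± 105 CPM in tumours and 151 ± 17.1 CPM in non-tumour liver (SD, n = 3 each). Of the regulators, Nfe2l2 rose by 0.21 and Mafg fell by 0.26 on that average, and Keap1 and Sqstm1 were not called. Taken singly, alcohol mice labelled IL17RA-/- were the only group with a call on Nfe2l2, and alcohol WT the only one with a call on Mafg. In HFD WT, Nfe2l2 averaged 122 ± 16.7 CPM in tumours and 121 ± 10.9 CPM in non-tumour liver (SD, n = 3 each). The calls on Gsr, Gpx2 and Nfe2l2 were kept in 20, 26 and 32 of 36 alternatives, and those on the other members in 35 or 36; leaving out 1 library at a time gave 24 to 27 called members.

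**Figure D4:**
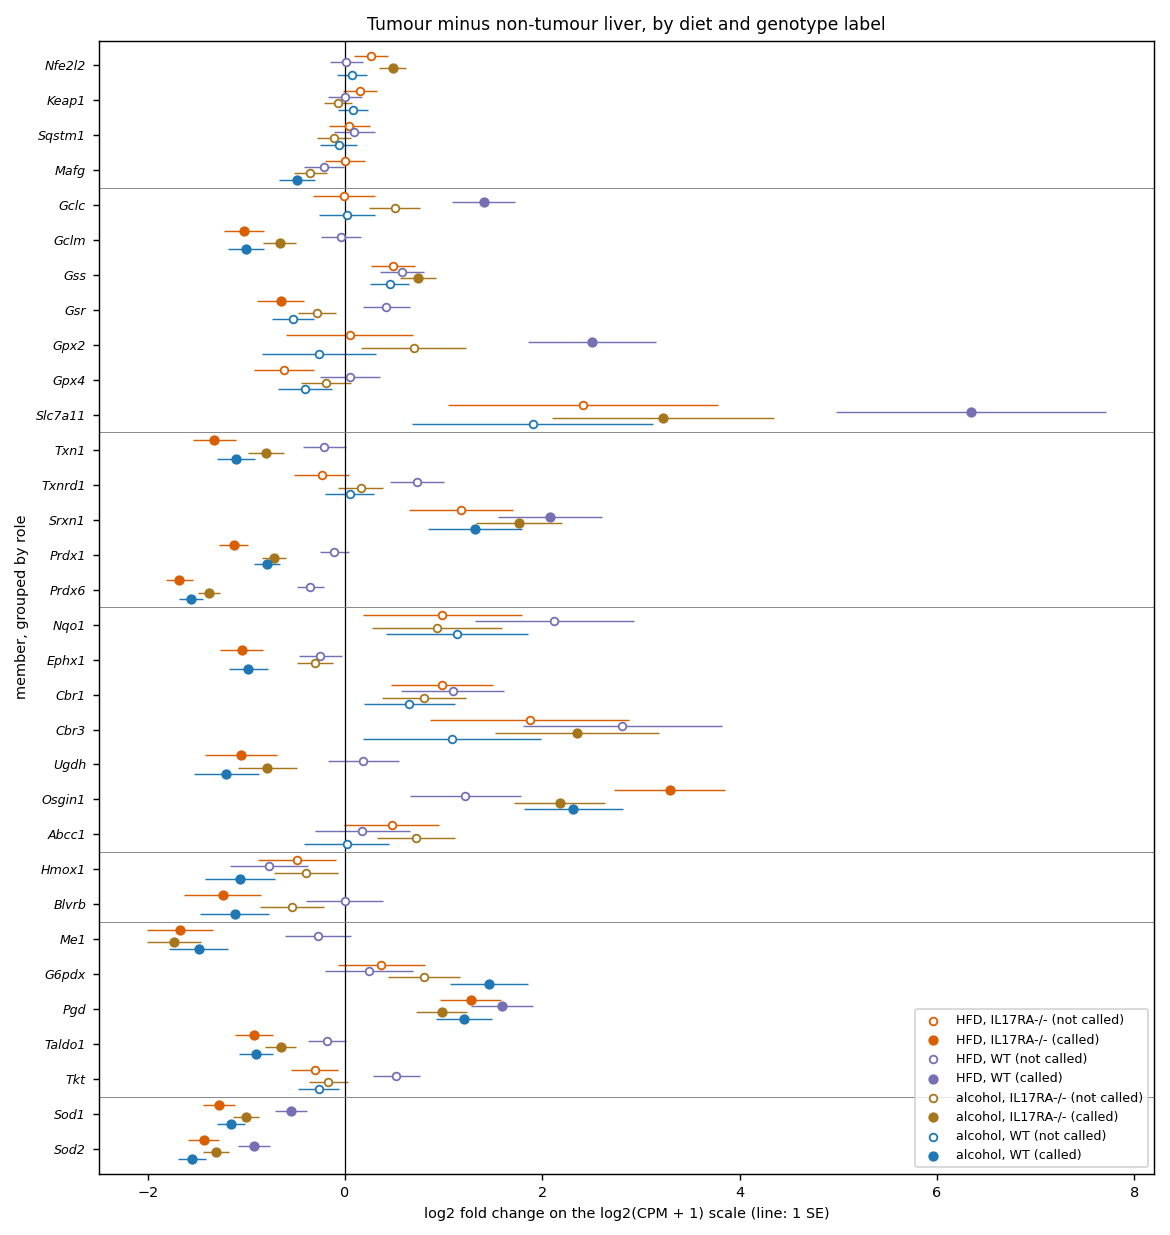
Log2 fold change of tumour minus non-tumour liver on the log2(CPM + 1) scale for the 32 genes, in the 4 combinations of diet and label, with lines of 1 SE and filled points for an adjusted p under 0.05. Sod1, Sod2 and Pgd are filled in all 4, and for Prdx6, Prdx1, Txn1, Me1, Gclm, Taldo1 and Ugdh the HFD WT point is open while the other 3 are filled and negative.

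Within single diets and labels the background of called genes was wide. In HFD mice labelled IL17RA-/-, 14 members were called (40.4% of genes), 2 higher (23.9%) and 12 lower (16.5%). In HFD WT mice 7 were called (15.3%), 5 higher (7.64%) and 2 lower (7.61%). In alcohol mice labelled IL17RA-/-, 16 were called (39.9%), 7 higher (21.8%) and 9 lower (18.1%), and in alcohol WT mice 17 (35.7%), 4 higher (16.6%) and 13 lower (19.2%). HFD WT thus had the fewest called members, and also the fewest called genes. Sod1, Sod2 and Pgd were called in all 4, and Osgin1, Prdx6, Prdx1, Txn1, Me1, Gclm, Taldo1 and Ugdh in the 3 other than HFD WT. For Sod1 the HFD WT call held in 7 of 12 alternatives (log2 fold change -0.87 to -0.40), and those on Sod2 and Pgd in 11 each. In HFD WT the higher members were Slc7a11 (6.35), Srxn1 (2.08), Pgd (1.59) and Gclc (1.41), beside Gpx2, whose HFD WT non-tumour values of 0.1401, 0 and 0.787 CPM lie at or under the floor and give no fold. Gclc had 1417, 1255 and 627 CPM in HFD WT tumours and 433, 424 and 325 CPM in HFD WT non-tumour livers. Tumours lay above all non-tumour libraries in 8 members and below in 13 for HFD mice labelled IL17RA-/- (32.4% and 22.3% of all genes), and in 9 and 2 for HFD WT (12.7% and 10.3%). For alcohol mice labelled IL17RA-/- these counts were 2 and 8 (15.1% and 14.5%), and for alcohol WT 3 and 13 (17% and 20%). Leaving out HFD WT non-tumour replicate 2 left 4 of these 7 calls, namely Gclc, Slc7a11, Pgd and Sod2.

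Whether the tissue difference depended on the label was tested within each diet. On HFD the interaction called 1 gene of 13586 (0.00736%), which was Prdx6, at -1.33 on the log2 scale (SE 0.1897, adjusted p = 0.00331, limma). Its tumour minus non-tumour fold change was -1.68 in HFD mice labelled IL17RA-/-, whose non-tumour livers had 571, 592 and 516 CPM, and -0.35 in HFD WT mice, whose non-tumour livers had 413, 522 and 576 CPM. The call held in all 17 alternatives run, with adjusted p-values from 0.00125 to 0.0462 and log2 values from -1.43 to -1.19. Leaving out HFD WT tumour replicate 5 or 6 brought the called members to 4 and 3. On alcohol the interaction called 0 members and 0% of 13586 genes by limma, with 338 genes and 1 member at an unadjusted p under 0.05.

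Markers of other cells differed between the tissues as well, against the same background of 63.6% of genes called. In tumours 10 of 12 Kupffer cell and macrophage markers were lower, summing to 221 to 890 CPM against 312 to 2537 CPM in non-tumour liver, and 6 of 7 cholangiocyte markers were higher, summing to 89.1 to 1679 CPM against 24.3 to 139 CPM. Of 8 stellate and fibroblast markers 5 were higher and 2 lower, of 7 endothelial markers 2 were lower, of 6 B cell markers 2 and of 7 T and NK cell markers tested 1 were higher, of 4 neutrophil markers 0 were called, and of 10 hepatocyte markers 2 (Alb and Apoa1) were higher and 5 lower. The part of these shifts in the members' differences was not tested.

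Genes related to the 32 were examined as 4 further lists. In HFD tumours labelled IL17RA-/- against WT, 1 of 18 other NRF2 regulators and partners was higher, Syvn1, a ubiquitin ligase of the endoplasmic reticulum, at 95.98 ± 14.02 and 50.4 ± 18.3 CPM (SD, n = 3 each; log2 fold change 0.96, adjusted p = 0.0436, limma), and 0 were lower. Of 33 other NRF2-responsive genes tested, 0 were higher and 1 was lower, the aldo-keto reductase Akr1c13, at 48.4 ± 5.12 and 91.3 ± 28.02 CPM (log2 fold change -0.87), with 28 negative and a median of -0.76. Of 24 other peroxidases, thioredoxins and related genes, 3 were lower and 0 higher: the mitochondrial peroxiredoxin Prdx3 (94.5 ± 6.59 and 168 ± 26.2 CPM), the glutaredoxin Glrx3 (39.7 ± 4.64 and 67.2 ± 5.89 CPM) and Prdx5 (105 ± 11.5 and 171 ± 20.8 CPM). Of 17 other pentose phosphate and NADPH genes tested, 0 were called, with a median of -0.36. Prdx2 and Prdx4 were not called. The background here is 1.61% of genes, and over all 13269 genes leaving out labelled replicate 4 or 6 left 0 calls, labelled replicate 5 left 1 and WT replicate 4 left 3.

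Between tissues, averaged over diets and labels, where 63.6% of all genes were called (36.6% higher, 27% lower), 10 of the 18 regulators were higher in tumours and 5 lower, including the small MAF gene Maff (1.497), Syvn1 (1.23) and the NRF2 competitor Bach1 (0.96). Of the 33 responsive genes 10 were higher and 12 lower, the largest differences being in the glutathione transferases Mgst1 (-2.301), Gsta3 (-2.11) and Gsta2 (-2.08). Of the 24 peroxidases and related genes 4 were higher and 16 lower, among them Gpx1 (-2.46), catalase and the methionine sulfoxide reductase Msrb1 (-1.48). Of the 17 pentose phosphate and NADPH genes 4 were higher and 11 lower, among them Pgm2 (1.32), Aldh1l1 (-1.13) and Shpk (-1.05).

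Reads of some members could be shared with other genes. The counts behind Sod1 were whole numbers in 0 of 29 libraries, those of Prdx1 and Sqstm1 in 1 each, G6pdx in 5, Slc7a11 in 13, Mafg in 15, Gclm in 19 and Gss in 21, and those of the other 24 members in all 29, within 0.002 counts. A fractional count is one that the estimator split between genes, so the levels of these 8 are less certain. In GENCODE M21 (GRCm38), exons of Gss overlap those of Acss2 over 395 bases on the opposite strand, G6pdx overlaps Ikbkg over 418, Sqstm1 overlaps Mrnip over 580, also on opposite strands, and Mafg overlaps Sirt7 over 124 bases on the same strand. The libraries were stranded, but the sources do not state whether counting used the strand. The genes of the main results lie on chromosome 1 at 161240112 to 161251219 for Prdx6 and 180976210 to 181020904 for Ephx1, chromosome 4 at 116685544 to 116700822 for Prdx1 and 57943373 to 57956411 for Txn1, chromosome 9 at 86581371 to 86695953 for Me1, and chromosome 3 at 49892526 to 50443614 for Slc7a11.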

How the data were processed

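RNA from 13 tumours and 16 non-tumour livers was sequenced as stranded polyA libraries (TruSeq), per the labels' protocols. Per the submitters' processing notes the tools were STAR 2.5.1a and RSEM 1.3.0 with GRCm38; annotation and filters are unstated there. CPM, the count scaled to one total in each library, is the unit of the single table that the authors deposited, with 22187 gene IDs, 534 of them without a symbol. Dividing by the value of 1 read gave whole counts for 83.4% to 86.2% of values above 0 (tolerance 0.002) and hundredths otherwise, as for estimated counts, so the CPM were tested and the recovered counts served an alternative only.

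Groups came from the sample labels. limma 3.58.1 (R 4.3.3, trend) was fitted to log2(CPM + 1) of genes with at least 1 CPM in at least 3 libraries, 13269 genes over 13 tumours, 12829 over 16 non-tumour livers, and 13586 over all 29 for comparisons between tissues. Tests were two-sided with Benjamini-Hochberg adjustment over all genes and a threshold of 0.05. Fold changes on this scale understate those of low genes. The linear model was tested on simulated data. Replicates differed by more than sampling noise. The 32 genes and all lists were chosen with earlier results of these data known, and the lower levels of the group in HFD tumours labelled IL17RA-/- were among those results. All 32 genes are named, and those outside the 32 are the called ones or the 3 largest differences of each list. Replicate numbers are shared in 10 comparisons, and they pair samples in 1 of these by correlation, alcohol against HFD in WT non-tumour liver (0.33, 0.257 and 0.13), where a block also called 0. Levels per kilobase used GENCODE M21 exons. Alternatives were another pseudocount, no filter, median-ratio rescaling, other fits, limma-voom, a replicate block, and leaving out libraries. Figures used matplotlib 3.10.9.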

Additional observations from a re-analysis of the deposited data

Results flagged for a closer look

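Of 96 sets of 1 gene in 1 group of 4 or 5 libraries, 4 held a library far from the rest of its group by Dixon's test, and chance gives about 5%. Prdx1 in alcohol WT non-tumour livers was lowest in replicate 3, at 858 CPM, with the others at 972 to 1003 CPM. Me1 in alcohol tumours labelled IL17RA-/- was lowest in replicate 4, at 45.2 CPM, with the others at 61.9 to 64.6 CPM. Abcc1 in alcohol WT non-tumour livers was highest in replicate 1, at 16.5 CPM, with the others at 6.95 to 8.90 CPM. Mafg in alcohol WT non-tumour livers was lowest in replicate 2, at 60.0 CPM, with the others at 68.6 to 71.4 CPM.

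The tumour minus non-tumour difference of Prdx6 on HFD differed between the labels: the value under the IL17RA-/- label minus that in WT was -1.33 on the log2 scale, by the interaction term in limma.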

How the results depend on the processing

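In HFD tumours, IL17RA-/- label against WT, 5 members were called; 3 were called with no filter, 9 with median-ratio rescaling, 1 (Slc7a11) with the compared groups only, 15 with all 29 libraries in the fit, 1 (Prdx6) with the replicate block, 0 without HFD WT tumour 4, HFD WT non-tumour 1 and HFD non-tumour 3 labelled IL17RA-/-, and 0 to 8 leaving out 1 library; pseudocount 0.1 and limma-voom gave 5. Over all genes these counts were 213, against 146, 626, 5, 1564, 62, 3 and 0 to 1174, with 218 for the pseudocount and 211 for limma-voom. For tumour against non-tumour liver in HFD WT, 7 were called, 4 with the compared groups only and 4 to 8 leaving out 1 library. With the compared groups only, 2 of the 7 kept their call and 5 lost it, so the 4 include newly called members. For alcohol against HFD in WT tumours, 1 was called, 0 with no filter, rescaling, compared groups only, limma-voom, the block, or those 3 libraries left out, 10 with all 29 libraries in the fit, and 0 to 1 leaving out 1 library. The label averaged over diets in tumours gave 0, and 2 with all 29 libraries; the label by diet interaction in tumours gave 0, and 9 with all 29. The tissue difference gave 26, 15 with the replicate block (without Slc7a11, Cbr3, Nqo1, Gclc, G6pdx, Hmox1, Blvrb, Mafg, Gsr, Gpx2 and Nfe2l2), and 24 to 27 leaving out 1 library. The label by tissue interaction on HFD gave 1, and 1 to 4 leaving out 1 library. The causes were not tested, except that leaving out libraries lowers their number by construction.

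None of the values changed sign with a call. Of 1783 values under an alternative of members called in a comparison, 1632 kept the call and 151 lost it, a total that leaves out members newly called; the 5 members of HFD tumours kept theirs in 33 of 70. The 2 settings that leave out libraries standing apart were chosen after seeing the data. The replicate block pairs samples that share a number only; correlations of same-numbered samples ran from -0.195 to 0.399. No paired analysis was possible between tissues on HFD because the groups share no number. Depth limits Gpx2, Cbr3 and Slc7a11, whose lowest values lie at a few counts.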
